A study of Mus musculus with 2 samples.

Results

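Some droplet barcodes carried transcripts of hepatic stellate cells and of liver macrophages at the same time, and these barcodes are described here. A barcode was a member if it had at least 500 unique molecular identifiers (UMIs, each marking 1 captured transcript), at most 50% mitochondrial UMIs, at least 3 detected genes of the stellate set Reln, Dcn, Lrat, Pdgfrb, Col1a1, Col1a2 and Col3a1, and at least 3 of the macrophage set C1qa, C1qb, C1qc, Clec4f, Cd5l, Adgre1 and Csf1r. Members were therefore selected on measured values of these 14 genes. The rule found 84 of the 47880 barcodes kept, of which 23 came from WT and 61 from HKO. They were set against 84 barcodes with only the stellate set (25 WT and 59 HKO, at most 2 macrophage genes) and 477 with only the macrophage set (200 WT and 277 HKO, at most 2 stellate genes).

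The study asked what loss of miR-33 in hepatocytes does to the liver in diet-induced steatohepatitis. Single-cell RNA-seq was run on livers of male mice that began CD-HFD, a high-fat diet lacking choline, at 8 weeks of age and stayed on it for 6 months. WT was the wildtype group, and HKO carried miR-33 loxP alleles with AlbCRE, a Cre recombinase under the albumin promoter that acts in hepatocytes, so stellate cells and macrophages were not its target. Each genotype was 1 library made from a pool of 3 livers, both groups received the CD-HFD, and no chow-fed library was analysed here. With 1 library a group there is no replicate, so no difference between genotypes or classes was tested. Intervals of shares, CPM and ratios below are 95% exact intervals that cover counting error only. Those of list medians describe the spread over genes.

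Hepatic stellate cells lie in the space between the sinusoidal endothelium and the hepatocytes, where they store vitamin A while quiescent and make collagen-rich matrix once activated. Kupffer cells, the resident liver macrophages, sit on the sinusoidal wall and reach stellate cells with their processes, and stellate and endothelial cells supply signals that keep Kupffer cell identity. During steatohepatitis some Kupffer cells are lost and monocyte-derived macrophages enter, part of which take on a lipid-associated program marked by Trem2, Gpnmb and Spp1. A droplet can hold a pair of cells, or pieces of neighbours that stayed attached during dissociation, or 1 cell with free RNA of another. These were not told apart here, and no doublet caller was run.

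The rule sums of the members, given as a description of what chose them, ranged widely. In WT members the 7 stellate genes together had 3 UMIs in the lowest barcode, a median of 36 and 354 in the highest, and the 7 macrophage genes had 3, 53 and 447. In HKO members the stellate genes had 6, 75 and 276 UMIs and the macrophage genes 4, 98 and 320. The sums of both sets were within 4-fold of each other in 16 of 23 WT and 42 of 61 HKO members, and macrophage UMIs were the larger part in 15 WT and 40 HKO members. All 7 macrophage genes were detected in 17 WT and 41 HKO members, all 7 stellate genes in 6 and 10, and all 14 in 4 and 8. At the threshold, 8 WT and 13 HKO members had exactly 3 genes of at least one set, and just outside it 10 WT and 13 HKO barcodes with the macrophage set had 2 stellate genes, while 1 WT and 4 HKO barcodes with the stellate set had 2 macrophage genes.

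**Figure D1:**
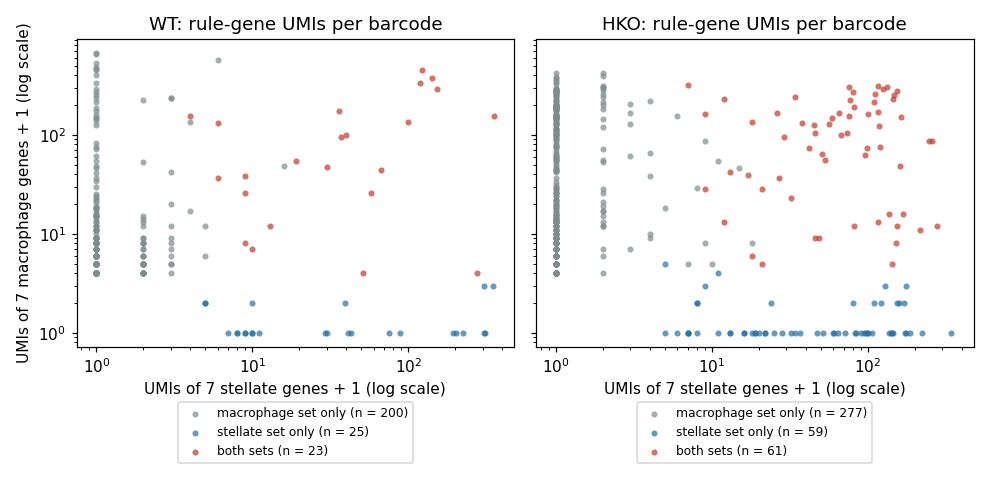
UMIs of the 7 macrophage genes against UMIs of the 7 stellate genes in each barcode (both plus 1, log scales), with 1 panel a library and 1 point a barcode. Members (red) spread between the single-set classes, which lie along the axes because the rule puts them there, and most WT and HKO members have rule sums within 4-fold of each other (16 of 23 and 42 of 61).

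The single genes of the rule show what the members hold. Dcn, a small matrix proteoglycan of stellate cells and fibroblasts, was detected in 23 of 23 WT members at 2131 CPM (UMIs of the gene per 1000000 UMIs of the class) and in 61 of 61 HKO members at 4219 CPM, against 4792 and 5555 CPM in barcodes with only the stellate set. Reln, which marks quiescent stellate cells, was at 727 CPM in WT members and 1254 CPM in HKO members, against 1656 and 2097 CPM. These levels describe the classes, which were chosen on both genes and differ in depth. Clec4f, a lectin of Kupffer cells, was found in 19 of 23 WT members (897 CPM) and 51 of 61 HKO members (1109 CPM), and at 0 UMIs in the stellate-only barcodes of both libraries. C1qa, a complement component made by macrophages, was found in 23 of 23 and 58 of 61 members, at 1091 and 1512 CPM. Thinned to 1000 UMIs a barcode, C1qa would be detected in 56.0% of WT and 65.9% of HKO members and Dcn in 73.2% and 89.2%.

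T and NK barcodes give a measure of how often these genes appear in cells that should lack both programs. Among T and NK barcodes without either set, the most frequent rule gene was C1qb in WT (7 of 124 barcodes, 5.65%, median depth 7091 UMIs) and Cd5l in HKO (15 of 435, 3.45%, median depth 2900 UMIs). Lacking the sets lowers these shares by construction. Over all T and NK barcodes, C1qb was found in 10 of 128 in WT (7.81%) and Cd5l in 38 of 460 in HKO (8.26%). Alb, the main hepatocyte transcript, was found in 100% of them in both libraries. The part of free RNA in the members was not tested.

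A barcode with the stellate set held the macrophage set far more often than other barcodes did. Of 48 WT barcodes with the stellate set, 23 had the macrophage set (47.9%, interval 33.3% to 62.8%), and of 120 HKO barcodes 61 had it (50.8%, 41.6% to 60.1%). Among barcodes without the stellate set the shares were 0.676% and 1.53%. Seen from the other side, 10.3% of WT and 18.0% of HKO macrophage-set barcodes had the stellate set, against 0.0850% and 0.329% of the rest. Depth moved with this. Members had a median of 14353 UMIs in WT (lowest 2844, highest 81678) and 13992 in HKO (1459 to 26710), against 7362 and 6910 in stellate-only barcodes and 10711 and 4798 in macrophage-only barcodes. Among barcodes with at least 5000 UMIs, 52.6% of WT and 58.1% of HKO stellate-set barcodes had the macrophage set, against 4.94% and 6.99% of those without the stellate set. After every barcode was thinned to 1000 UMIs, members fell to 2 in WT and 13 in HKO, and the shares of stellate-set barcodes to 11.8% and 23.2%.

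**Figure D2:**
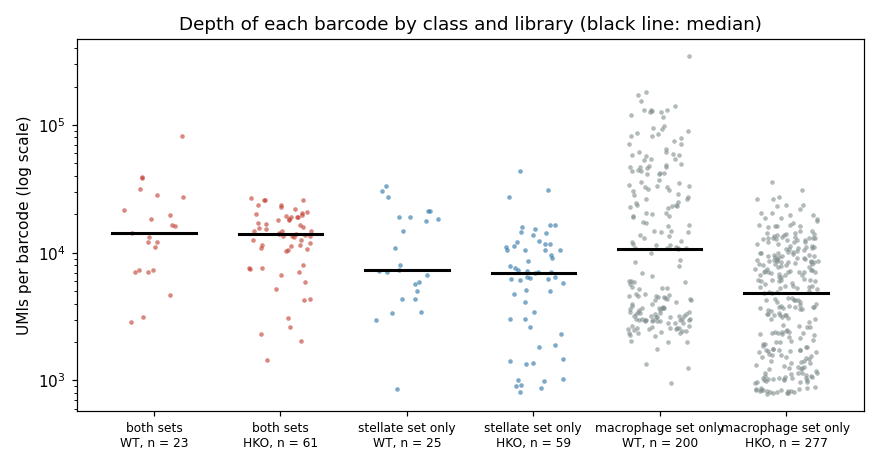
UMIs per barcode (log scale) for the 3 classes in each library, 1 point a barcode, with the median as a black line. Members have medians of 14353 and 13992 UMIs, and 35 WT macrophage-only barcodes reach over 50000 UMIs.

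Other marker sets were counted in the same way. The endothelial set (at least 3 of 10 markers, among them Stab2, Clec4g and Ptprb of sinusoidal endothelium) was held by 64.6% of WT and 75.8% of HKO stellate-set barcodes, against 0.805% and 2.06% of the barcodes without the stellate set. T and NK markers were held by 0 of 48 WT stellate-set barcodes (exact upper limit 7.40%, where 3 counts would be 6.25%), and the share without the stellate set was 0.433%. In HKO they were held by 7 of 120 (5.83%, 2.38% to 11.7%), where 2.50% of the barcodes without the stellate set held them. B and plasma cell markers were held by 0 of 48 in WT, where the share without the stellate set was 0.0913%, and by 1 of 120 in HKO (0.833%, 0.0211% to 4.56%), where it was 0.562%. With at least 5000 UMIs the endothelial set was held by 76.3% of WT and 90.3% of HKO stellate-set barcodes, against 7.93% and 8.91% of those without the stellate set. T and NK markers were then held by 0 of 38 in WT (exact upper limit 9.25%, where 3 counts would be 7.89%), against 4.69%. In HKO they were held by 7.53% (3.08% to 14.9%), against 3.26%.

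**Figure D3:**
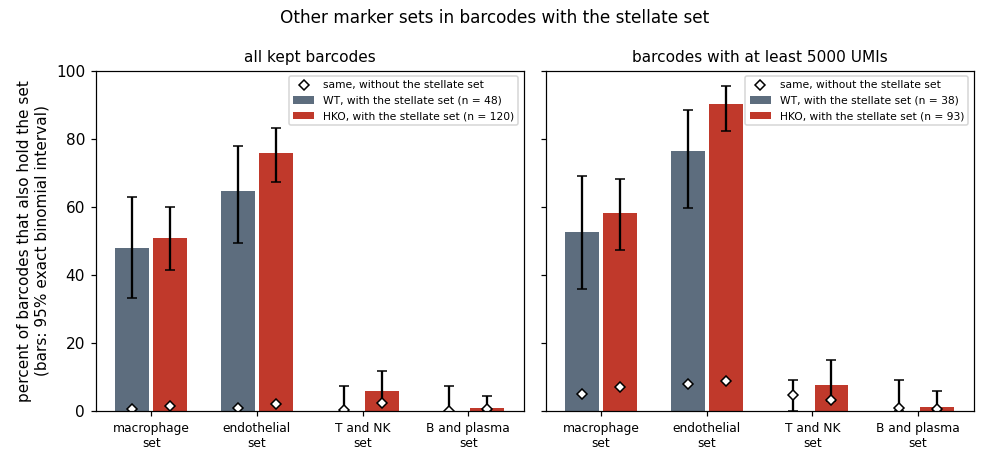
Percent of barcodes with the stellate set that also hold the macrophage, endothelial, T and NK or B and plasma set (bars, with 95% exact binomial intervals as error bars), and the same percent among barcodes without the stellate set (diamonds), for all kept barcodes and for those with at least 5000 UMIs. The macrophage bars stand at 47.9% and 50.8% and the endothelial bars at 64.6% and 75.8%, while the T and NK bars stand at 0% and 5.83%.

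Most members thus carried endothelial transcripts as well. The endothelial set was present in 17 of 23 WT members (73.9%, 51.6% to 89.8%) and 53 of 61 HKO members (86.9%, 75.8% to 94.2%), in 56.0% and 64.4% of stellate-only barcodes and in 19.5% and 35.0% of macrophage-only barcodes. Members with it were deeper, with medians of 16506 and 14822 UMIs against 7070 and 4752 in the 6 WT and 8 HKO members without it. Ptprb, a phosphatase of endothelial junctions, was at 536 CPM in WT members and 1058 CPM in HKO members, against 36.5 and 286 CPM in macrophage-only barcodes and a ratio of 14.7 (12.1 to 17.8) in WT and 3.70 (3.32 to 4.13) in HKO. Stab2, a scavenger receptor of sinusoidal endothelium, was 7.44 (5.81 to 9.49) and 2.64 (2.33 to 3.00) times its macrophage-only CPM. Of the 10 endothelial genes 9 were at least 2-fold higher than in macrophage-only barcodes in both libraries, where 8.9% of 11066 genes tested passed that fold. Against stellate-only barcodes the endothelial median was -1.14 in WT and -0.16 in HKO on the log2 scale. All 10 genes were lower in WT members and 7 of 10 in HKO members, and 0 of 10 passed the 2-fold limit in the same direction in both libraries, where 6.56% of the genes tested were higher and 1.42% lower.

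The macrophage-only class of the WT library needs a word before it serves as a reference. Of its 200 barcodes 35 had over 50000 UMIs, and the 10 hepatocyte genes made up 110684 CPM of the class, against 45334 CPM in WT members and 17134 and 11569 CPM in the HKO macrophage-only class and members. Where the rule genes of a set also had to reach 0.1% of a barcode's UMIs, the macrophage-only class held 126 WT barcodes, with 40365 CPM of hepatocyte genes and none above 50000 UMIs, beside 273 HKO barcodes and 16 WT and 49 HKO members. Members that missed the 0.1% for only 1 set were then counted in the class of the other set. The single-set classes under this rule thus include former members, and stellate-only barcodes in HKO rose from 59 to 64. Ratios over the macrophage-only class depend on this choice in WT, where many turn direction, and the rule is named beside them below. The median log2 ratio of all genes tested was 0.53 in WT and -0.01 in HKO under the plain rule, and 0.03 and -0.01 under the 0.1% rule. The endothelial genes show the effect of the reference, since their median over macrophage-only barcodes was 3.52 in WT and 1.86 in HKO under the plain rule and 1.25 and 1.81 under the 0.1% rule, where 6 of 10 genes were 2-fold higher in both libraries, as were 588 of 9769 genes tested. Ptprb was then 2.96 (2.41 to 3.64) and 3.57 (3.20 to 3.99) times its macrophage-only CPM, and Stab2 1.77 (1.34 to 2.32) and 2.52 (2.22 to 2.87) times.

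The macrophage state of the members depended on the genes used to name it. A state was named by the larger of a Kupffer sum and a lipid-associated sum of UMIs in a barcode. With the 15 Kupffer genes outside the rule against the 14 lipid-associated genes, the Kupffer sum was the larger in 3 of 23 WT members (13%, 2.78% to 33.6%) and 24 of 61 HKO members (39.3%, 27.1% to 52.7%). In macrophage-only barcodes it was the larger in 14.5% (9.93% to 20.2%) and 33.2% (27.7% to 39.1%), and these intervals overlap those of the members. Stellate-only barcodes, which hold at most 2 macrophage rule genes, gave 24.0% (9.36% to 45.1%) and 28.8% (17.8% to 42.1%), and the lipid-associated sum was the larger in 64.0% and 57.6% of them, against 87.0% and 59.0% of members, so these sums name a state also without the macrophage set. The lipid-associated sum holds Ctsb, a lysosomal protease of many cell types, which was at 2295 CPM in WT and 2574 CPM in HKO members and at 629 and 402 CPM in stellate-only barcodes. With the rule genes Clec4f and Cd5l added to the Kupffer sum, on which members were selected, it was the larger in 13 WT (56.5%) and 49 HKO members (80.3%), and the sums lay within 2-fold of each other in 18 and 37. Vsig4, a complement receptor of Kupffer cells, was detected in 16 WT and 49 HKO members, and Timd4, a phosphatidylserine receptor of long-resident Kupffer cells, in 4 and 25. Trem2, the lipid-sensing receptor of lipid-associated macrophages, was detected in 11 WT and 13 HKO members.

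With the 0.1% rule, the Kupffer list outside the rule sets had a median nearer to 0 than the lipid-associated list. The Kupffer list had a median log2 ratio of -0.46 in WT and -0.24 in HKO, and 0 of 14 genes tested were 2-fold lower in both libraries. The lipid-associated list had medians of -1.56 and -1.51, and 8 of 14 genes were 2-fold lower in both libraries, where 155 of 9769 genes were. The spread over genes was wide, with order-statistic intervals of the median of -1.38 to -0.16 (WT) and -0.67 to -0.14 (HKO) for the Kupffer and -2.91 to -0.35 and -2.42 to -0.41 for the lipid-associated list, which overlap. The 8 genes were Trem2, Gpnmb, Spp1, Fabp5, Lgals3, Itgax, Mmp12 and Atp6v0d2. Vsig4 had 699 CPM in WT members against 973 CPM (ratio 0.719, 0.618 to 0.833), and 907 against 1073 CPM in HKO (0.846, 0.771 to 0.926). Trem2 had 57.5 CPM in WT members against 171 CPM (0.335, 0.194 to 0.546), and 30.6 against 91.0 CPM in HKO (0.337, 0.203 to 0.532). Under the plain rule the WT ratios turned direction, to 3.31 (2.86 to 3.81) for Vsig4 and 1.79 (1.12 to 2.76) for Trem2, and those in HKO were 0.787 (0.720 to 0.860) and 0.285 (0.174 to 0.447).

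Single genes of the list differed in size, again with the 0.1% rule first. Mmp12, a macrophage elastase, had 265 CPM in WT members against 810 CPM (0.327, 0.258 to 0.411) and 75.8 against 767 CPM in HKO (0.0989, 0.0735 to 0.130). Spp1, osteopontin, was at 1 UMI in all WT members and 3 UMIs in all HKO members, 3.19 against 24.1 CPM in WT (ratio 0.133, 0.00323 to 0.814) and 4.38 against 137 CPM in HKO (0.0319, 0.00653 to 0.0942). Lpl, lipoprotein lipase, stands apart within the list, with a ratio of 1.02 (0.896 to 1.15) in WT and 0.469 (0.426 to 0.514) in HKO. Under the plain rule the WT ratios were 1.33 (1.05 to 1.67) for Mmp12, 0.0444 (0.00112 to 0.25) for Spp1 and 5.07 (4.51 to 5.69) for Lpl, and those in HKO were 0.162, 0.0253 and 0.432. Timd4 had a ratio of 0.196 (0.0519 to 0.527) in WT, from 4 UMIs, and 0.801 (0.604 to 1.05) in HKO under the 0.1% rule, and of 1.64 (0.680 to 3.44) and 0.746 (0.569 to 0.970) under the plain rule, so its WT direction turned.

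Under the plain rule the HKO library gave medians of -0.37 for the Kupffer and -1.61 for the lipid-associated list, and the WT library gave 1.37 and 0.56. In both, the lipid-associated median was the lower. Spp1, Gpnmb and Atp6v0d2 were then the 3 of 14 lipid-associated genes at least 2-fold lower in both libraries, where 1.69% of 11066 genes were, and 0 of 14 Kupffer genes were.

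**Figure D4:**
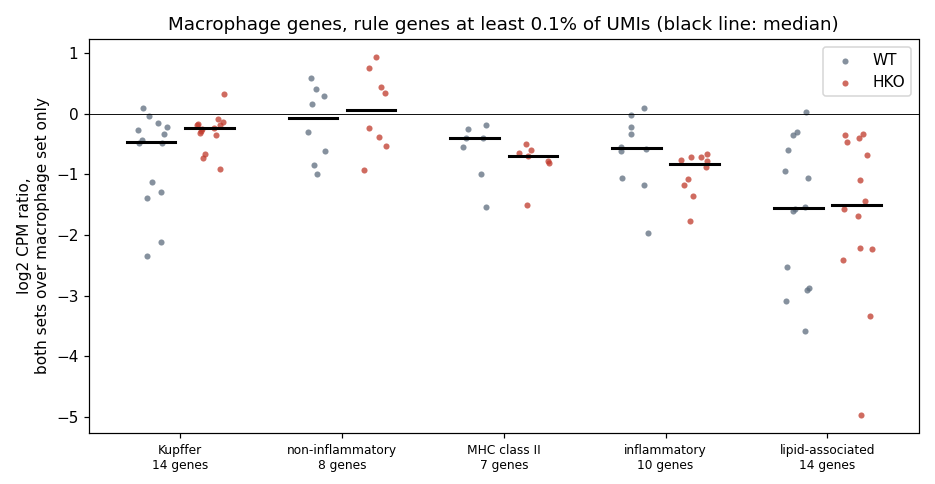
log2 ratio of CPM in members over macrophage-only barcodes for single genes of 5 macrophage lists under the 0.1% rule, 1 point a gene, WT in grey and HKO in red, with the list median as a black line. Lipid-associated genes have medians of -1.56 and -1.51, and Kupffer genes of -0.46 and -0.24.

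Other macrophage programs differed in their medians. Under the 0.1% rule, MHC class II genes, which present antigen, had medians of -0.40 in WT and -0.70 in HKO, inflammatory genes -0.57 and -0.83, and the non-inflammatory list -0.07 and 0.06. Tnf, an inflammatory cytokine, had a ratio of 1.06 (0.698 to 1.58) in WT and 0.294 (0.203 to 0.413) in HKO. Il1b, another such cytokine, was at 0.650 (0.427 to 0.961) and 0.474 (0.361 to 0.614). Maf, a transcription factor of resident macrophages that sinusoidal endothelium also expresses, was 1.51 (1.29 to 1.75) and 1.92 (1.77 to 2.07) times its macrophage-only CPM. Under the plain rule the WT medians were 1.61, 1.64 and 1.93 for these lists in the same order, and the WT ratios were 4.60 (3.07 to 6.76) for Tnf, 3.61 (2.51 to 5.09) for Il1b and 7.63 (6.66 to 8.72) for Maf. In HKO the plain rule gave 0.298, 0.494 and 1.88 for these genes. Ccr2, the receptor that brings monocytes in, was detected in 3 WT and 7 HKO members, and 1 barcode held 70.0% of the WT and 46.7% of the HKO Ccr2 UMIs.

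Quiescence transcripts exceeded matrix transcripts in most members. With rule genes left out, the sum of 16 quiescence genes was larger than that of 20 matrix genes in 18 of 23 WT members (78.3%, 56.3% to 92.5%) and 57 of 61 HKO members (93.4%, 84.1% to 98.2%). In stellate-only barcodes the shares were 84.0% and 93.2%, and in macrophage-only barcodes, which carry few stellate transcripts, 61.0% and 32.1%. Neither sum was the larger in 64 of 200 WT and 137 of 277 HKO macrophage-only barcodes, against 2 of 23 and 0 of 61 members. The quiescence sum was the larger in 122 WT and 89 HKO macrophage-only barcodes, and the matrix sum in 14 and 51. These sums thus name a state also without the stellate set. Colec11, a secreted lectin, was detected in 20 WT and 60 HKO members, Ecm1 in 20 and 59, and Hgf, hepatocyte growth factor, in 17 and 57. Acta2, the smooth muscle actin of activated stellate cells and smooth muscle, was detected in 1 WT and 1 HKO member, and in 1 stellate-only barcode of each library.

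Both stellate lists had medians below 0 over stellate-only barcodes, while few of their genes passed the 2-fold limit. CPM are shares of all UMIs, and members were chosen to hold transcripts of both sets. The part of this mixing in the stellate ratios here, and in the macrophage ratios above, was not tested. The quiescence list had a median log2 ratio of -1.31 in WT and -0.54 in HKO, and its summed CPM was 0.408 and 0.648 times the stellate-only sum, with 16 of 16 genes lower in WT and 15 in HKO. The matrix list had medians of -0.36 and -0.52, with 9 of 15 genes lower in WT and 13 in HKO. With the rule collagens counted, 1 WT member held 417 of the 1245 matrix UMIs of the WT members. Its part in the WT median was not tested. Of 16 quiescence genes 1 was 2-fold lower in both libraries and of 15 matrix genes tested 0 were, where 1.42% of 8567 genes tested were and 6.56% were 2-fold higher. Ecm1 had 488 CPM in WT members against 1463 CPM (ratio 0.334, 0.282 to 0.394), and 1079 against 1733 CPM in HKO (0.623, 0.567 to 0.685). Colec11 had 304 against 939 CPM in WT (0.324, 0.262 to 0.399) and 643 against 839 CPM in HKO (0.767, 0.674 to 0.873). Bgn, a matrix proteoglycan, had ratios of 0.585 (0.492 to 0.694) and 0.905 (0.806 to 1.02). Myh11, a smooth muscle myosin, was among the genes lowest against stellate-only barcodes, at 0.390 (0.152 to 0.938) and 0.242 (0.103 to 0.524), together with Thsd4, Fendrr, Ccdc141, Eda, Abca8b, Actr1b, Cachd1 and Gas1.

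**Figure D5:**
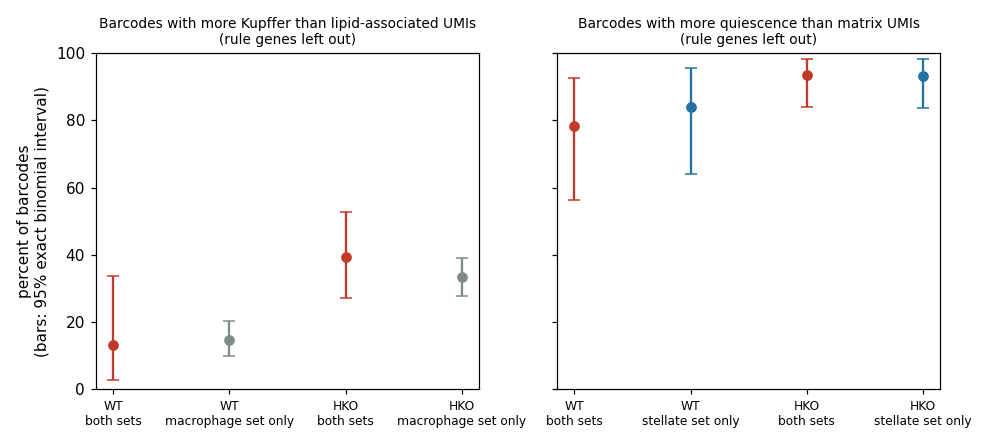
Left, percent of barcodes in which Kupffer UMIs exceeded lipid-associated UMIs, in members and in macrophage-only barcodes, and right, percent in which quiescence UMIs exceeded matrix UMIs, in members and in stellate-only barcodes, with rule genes left out of all sums and 95% exact binomial intervals. Members stand at 13% (WT) and 39.3% (HKO) on the left and at 78.3% and 93.4% on the right, with intervals that overlap those of the single-set classes.

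The pairing of states likewise depended on the genes in the sums. Without rule genes, the lipid-associated and quiescent states were paired in 16 of 23 WT members (69.6%, 47.1% to 86.8%) and 33 of 61 HKO members (54.1%, 40.8% to 66.9%), and the Kupffer and quiescent states in 2 (8.70%) and 23 (37.7%). Stellate-only barcodes gave the first pair in 52.0% (31.3% to 72.2%) and 54.2% (40.8% to 67.3%) and the second in 20.0% (6.83% to 40.7%) and 27.1% (16.4% to 40.3%), and each of these intervals overlaps that of the members. Macrophage-only barcodes gave the first pair in 51.5% (44.3% to 58.6%) and 20.6% (15.97% to 25.8%). They gave the second in 7.5% (4.26% to 12.1%) and 10.5% (7.12% to 14.7%). Both of these WT intervals overlap those of the members, and both HKO intervals lie below them. The 64 WT and 137 HKO macrophage-only barcodes without a named stellate state stay in these shares. With the rule genes in the sums, the Kupffer and quiescent pair was named in 10 WT (43.5%) and 47 HKO members (77.0%), and the lipid-associated and quiescent pair in 7 and 11. The matrix state was named in 3 WT and 4 HKO members without rule genes and in 5 WT (21.7%, 7.46% to 43.7%) and 3 HKO members with them. The rule genes of both sides were taken out together, so their parts in this change were not told apart. By single rule genes, as a description of the members chosen, Clec4f and Reln were found together in 14 WT and 49 HKO members, and Clec4f and Col1a1 in 6 and 16. Timd4, outside the rule, was found with Reln in 2 WT and 24 HKO members, and Trem2 with Reln in 10 and 13.

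A large part of the matrix collagen UMIs of the WT members came from 1 barcode. This WT member of 31282 UMIs had 99 UMIs of Col3a1, 32 of Col1a1 and 34 of Col1a2, which is 66.4%, 68.1% and 46.6% of these genes' UMIs over all WT members. It was the WT member with Acta2, held 55 UMIs of C1qa, 0 of Clec4f, 0 of Cd5l and 2 of Trem2, and had 0 UMIs of the 10 endothelial genes. The HKO member with Acta2, of 18875 UMIs, had 0 UMIs of Clec4f, 13 of Cd5l, 1 of Trem2 and 94 of the endothelial genes. Both members with Acta2 thus lacked Clec4f. These barcodes were singled out after their values were seen.

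Ligand and receptor genes of both cell types were detected in the members, where a transcript cannot be assigned to one cell of a mixed barcode. Of the ligands that stellate cells are known to offer macrophages, Cxcl12, a chemokine, was at 414 CPM in WT members and 678 CPM in HKO members, Csf1, a growth factor of macrophages, 43.2 and 56.6 CPM, Il34, which shares the Csf1 receptor, 61.4 and 93.1 CPM, and Gdf2 (BMP9) 68.2 and 145 CPM. Cxcl12 was lower than in stellate-only barcodes, which had 861 and 973 CPM. The intervals of the ratio included 1 for Csf1 and Il34 in WT and for Gdf2 in both libraries. Of the 10 such ligands tested against stellate-only barcodes, 1 (Vcam1, an adhesion molecule) was 2-fold higher and 1 (Tgfb2, a fibrogenic cytokine) was 2-fold lower in both libraries, both named after their values were seen, against 6.56% and 1.42% of all genes tested. The macrophage ligands for stellate cells had medians of -0.79 in WT and -1.08 in HKO over macrophage-only barcodes under the 0.1% rule, with 1 of 9 genes, Spp1, 2-fold lower in both, as were 155 of 9769 genes tested. Tgfb1, the main fibrogenic cytokine, had 59.1 and 115 CPM in members. Stellate receptors had medians of -0.71 and -0.61 over stellate-only barcodes, and 0 of 11 passed the fold in either direction in both libraries, against the same 6.56% and 1.42%. Ednrb, an endothelin receptor, had 127 and 204 CPM against 295 and 339 CPM. Of the receptor genes known from macrophages, Mertk, which binds Gas6 and takes up dying cells, had 416 and 633 CPM, and Axl of the same family 184 and 273 CPM.

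Few genes were 2-fold above or below both single-set classes in both libraries. In each library about the same share of 8465 genes lay between the class levels, 51.0% in WT and 50.9% in HKO, and 25.5% did so in both. In WT 33% of genes lay above both classes and 7.57% at least 2-fold above, and in HKO 24.2% and 0.473%. Genes 2-fold above both classes in both libraries numbered 5 (0.0591%), and 3 were 2-fold below both (0.0354%). The 5 were S100a8, S100a9, Isg20l2, Smyd4 and Nfya, and Akr7a5 and Akr1c12 were among the 3 below. Of these, Isg20l2, Smyd4, Nfya, Akr7a5 and Akr1c12 were named after their values were seen. S100a8 and S100a9, calprotectin subunits of neutrophils, rest on few barcodes, since 1 barcode held 92.6% and 94.8% of their UMIs over all members. By the rule for named genes, Agtrap, Wdfy1, Pdxdc1, Tmem109, Ipo9, Sh3pxd2a, Maf1 and Tspan3 came next, each under 2-fold in at least one library. With the 0.1% rule 0 genes were above both classes and 8 were below. The genes furthest above stellate-only barcodes, where macrophage genes are favoured by the selection, were Ccl6 (ratio 92.3, 16.3 to 3673, in WT from 1 stellate-only UMI, and 108, 29.7 to 897, in HKO from 2), Vsig4, Aif1, Wfdc17, Fcgr4, Mpeg1, Cd74, Slc7a8, Ctss and H2-Eb1. Those furthest above macrophage-only barcodes included Zfp804b, Mamdc2, Piezo2, Astn2, Nrxn3, Lama1, Gucy1b1, Cacna2d1 and Gpc6. The lowest against macrophage-only barcodes were Spp1, the haemoglobin genes Hba-a1, Hbb-bs and Hba-a2, Fam20c, Ly6d, Fam25c, Mreg, Gm39469 and Nr1i2.

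Under the plain rule, neutrophil genes were at 202 CPM in WT and 1696 CPM in HKO members, against 3.27 and 58.9 CPM in stellate-only and 8.08 and 194 CPM in macrophage-only barcodes, from the few barcodes with S100a8 and S100a9 described above, with at least 3 of 5 neutrophil genes in 1 WT and 3 HKO members. Under the 0.1% rule both WT directions turned, with 16 CPM in members against 292 CPM in stellate-only and 38.1 CPM in macrophage-only barcodes, while HKO members had 2051 CPM against 108 and 196 CPM. The rise from 3.27 to 292 CPM in the WT stellate-only class came with former members that this rule moved into it. The T and NK list was at 6.82 CPM in WT members and 74.2 CPM in HKO members, and the B and plasma list 4.54 and 639 CPM, where 1 HKO barcode held 97.0% of Ighm and 100% of Jchain UMIs. The 10 cell cycle genes summed to 166 CPM over WT members and to 54.2 CPM over HKO members, and Mki67, a proliferation marker, had 11 UMIs in WT members, 90.9% of them in 1 barcode, and 4 in HKO members, in 4 barcodes. Portal fibroblast genes had 125 and 82.5 CPM in members against 347 and 152 CPM in stellate-only barcodes.

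Members made up 0.0777% of kept WT barcodes (0.0492% to 0.116%) and 0.334% of HKO barcodes (0.256% to 0.429%), so their share was 4.30 times as high in HKO (2.62 to 7.28). The single-set classes moved the same way, with ratios of 3.83 (2.36 to 6.38) for the stellate-only and 2.25 (1.87 to 2.71) for the macrophage-only class. The libraries differed in depth and in how many shallow barcodes were kept, with medians of 2650 UMIs over the 29620 kept WT barcodes and 1061 over the 18260 kept HKO barcodes, and the part of this in the shares was not tested. A difference between the genotypes cannot be told apart from one between the libraries.

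Between the libraries, 7 of 10 endothelial genes were at least 2-fold higher and 10 of 10 hepatocyte genes at least 2-fold lower in HKO members. Of 10323 genes tested in members, 13.7% were at least 2-fold higher in HKO and 10.7% at least 2-fold lower, and the median log2 ratio of all genes was 0.22. The genes tested here include the rule genes on which members were selected. The Kupffer list had a median of 0.76, with 5 of 14 genes 2-fold higher, the quiescence list 0.65, with 4 of 16 higher and 1 lower, and the endothelial list 1.14, with 7 of 10 higher. The lipid-associated list was at 0.19 and the matrix list at 0.02. All 10 hepatocyte genes were 2-fold lower, with a median of -2.01. The single-set classes moved too, with hepatocyte genes at 110684 CPM in WT and 17134 CPM in HKO macrophage-only barcodes and at 41448 and 26879 CPM in stellate-only barcodes. The Kupffer list was at 1145 and 6172 CPM in macrophage-only barcodes, the endothelial list at 194 and 1399 CPM there and at 4422 and 5063 CPM in stellate-only barcodes, and the quiescence list at 9074 and 9496 CPM in stellate-only barcodes. Alb had 19917 CPM in WT members and 4615 CPM in those of HKO. With a profile of free RNA subtracted from each class, the medians were 0.27 for the Kupffer, 0.03 for the quiescence, 0.53 for the endothelial and -1.57 for the hepatocyte list.

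Timd4 was among the 10 genes highest in HKO over WT members, at 18.2 CPM (8 UMIs in 4 barcodes) against 91.9 CPM (78 UMIs in 25 barcodes), a ratio of 5.06 (2.44 to 12.1). It was also higher in HKO among macrophage-only barcodes, at 11.1 against 123 CPM, or 65.2 against 127 CPM under the 0.1% rule. Hs6st3, Ccl5, Tmem108, Cbfa2t3, Ccl24, Pmaip1, Gm12840, Gbp2b and Cdc42ep2 were the others. The stellate genes Ecm1 and Colec11 were 2.21 (1.90 to 2.58) and 2.11 (1.75 to 2.57) times as high in HKO members. The 10 lowest, Cxadr, Cyp2c70, Nrn1, Mttp, Aqp9, Pon1, Akr1c6, Gdf15, Tkfc and Ehhadh, include Mttp, which loads lipid onto lipoproteins in hepatocytes, and Ehhadh, an enzyme of peroxisomal fatty acid oxidation.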

How the data were processed

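The authors deposited filtered gene-by-barcode matrices of UMI counts for both libraries, made with Cell Ranger 7.1.0 per the file headers on mm10 per the labels' processing notes. Whether intronic reads were counted, and a removal of ambient RNA or doublets, are not given in the sources used here. The deposited counts held 30078 barcodes and 130451427 UMIs (WT) and 20000 barcodes and 52563185 UMIs (HKO), and 458 and 1740 barcodes were left out for over 50% mitochondrial UMIs. Barcodes shared between the libraries were not analysed here.

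Members and gene lists were chosen with earlier results of these data known. UMIs were summed over the barcodes of a class in a library and given as CPM, which for low genes follow depth. Ratios have exact conditional intervals, CPM exact Poisson and shares Clopper-Pearson intervals at the 95% level, and a gene at 0 was set to a floor of 3 counts. Between classes, genes with at least 10 UMIs over the compared classes in each library were compared outside the 14 rule genes, and called at 2-fold in both libraries. Between libraries, genes with at least 10 UMIs over the members of both were compared, the 14 rule genes among them. Named genes were the rule and list genes, the 10 genes highest by the smaller and the 10 lowest by the larger of the ratios of the 2 libraries among those with at least 20 UMIs over both classes in each library, the 10 genes furthest above both classes, and, between libraries, the 10 highest and lowest with at least 50 UMIs over both and no barcode holding over 50% of them. A few genes that the rule names are not reported here. Alternatives covered 17 settings. Values used Python 3.11.15, numpy 2.4.6, scipy 1.17.1 and pandas 2.3.3, and TMM scaling factors edgeR 4.0.16 in R 4.3.3. The scripts were tested on simulated data.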

Additional observations from a re-analysis of the deposited data

Results flagged for a closer look

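Several gene lists had a median log2 ratio over the macrophage-only class above 0 in WT members and below 0 in HKO members under the plain rule. These were the Kupffer list (1.37 in WT and -0.373 in HKO), the lipid-associated list (0.555 and -1.61), the monocyte list (1.51 and -0.439), MHC class II (1.61 and -0.701), the inflammatory list (1.64 and -1.03), macrophage receptors (1.73 and -0.694), macrophage ligands for stellate cells (0.671 and -0.900), efferocytosis and lysosome genes (1.06 and -0.352), the T and NK list (1.69 and -0.964) and cell cycle genes (3.50 and -1.52). The non-inflammatory list (1.93 and -0.04) and immediate early genes (0.95 and -0.05) had the same signs with an HKO median near 0, as had all genes tested (0.53 and -0.01). The WT value of the T and NK list comes from the floor of 3 counts set for 5 of its 5 genes, and the summed level of the list was lower in WT members, at 6.82 against 19.5 CPM. The differences between the libraries were not tested. Beside them stand the hepatocyte genes of the WT macrophage-only class, at 110684 CPM against 17134 CPM in HKO, and their part in the opposite signs was not tested apart from the 0.1% rule. Under that rule the WT medians were -0.46 for the Kupffer, -1.56 for the lipid-associated, -0.18 for the monocyte, -0.40 for the MHC class II, -0.57 for the inflammatory, -0.18 for the macrophage receptor, -0.79 for the macrophage ligand and -0.15 for the efferocytosis and lysosome list, all below 0 as in HKO, while cell cycle genes stayed above it at 1.53 and no T and NK gene had enough UMIs.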

How the results depend on the processing

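No paired analysis was possible because each genotype was 1 library and the labels give no replicate numbers. Of 1377 values recomputed under 17 settings, 3 of them chosen after seeing the data (at least 5000 UMIs, no endothelial-set barcodes, and states without rule genes), 1088 stayed within their spread, 261 moved and 28 changed sign. The cause was not tested except where fewer genes or barcodes entered. Reported counts were, over both libraries, 562 and 122 genes 2-fold higher and lower than stellate-only, 985 and 187 than macrophage-only, 5 above and 3 below both, and 1415 and 1102 genes higher and lower in HKO.

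Members numbered 39 in WT with 2 genes of each list and 15 with 4 genes, 2 WT and 13 HKO after thinning to 1000 UMIs, and 6 and 8 without endothelial-set barcodes. The share of stellate-set barcodes with the macrophage set was 11.8% (WT) and 23.2% (HKO) after thinning and 27.6% (HKO) without endothelial-set barcodes.

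States named with the rule genes in the sums are compared here. Without rule genes the Kupffer state held 13% of WT and 39.3% of HKO members in place of 56.5% and 80.3%, and its pair with the quiescent state 8.70% and 37.7% in place of 43.5% and 77.0%, while the quiescent state held 78.3% and 93.4%. At a 2-fold margin the Kupffer state held 8.70% of WT and 36.1% of HKO members, the quiescent state 65.6% (HKO) and their pair 4.35% and 31.1%. After thinning the quiescent state and the pair held 0% of the WT members, and in HKO the Kupffer state, the quiescent state and the pair held 92.3%, 100% and 92.3%. Without endothelial-set barcodes the Kupffer state and the pair both held 16.7% in WT, and the pair 87.5% in HKO.

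Genes lower than stellate-only numbered 58 with TMM scaling, 294 with at least 3 UMIs a gene, 38 with at least 30, 202 with barcodes weighted equally, 457 with free RNA subtracted and 184 under the 0.1% rule. Genes higher than stellate-only numbered 279 with at least 30 UMIs, 177 after thinning and 122 without endothelial-set barcodes. Genes lower than macrophage-only numbered 431 with TMM, 68 with 2 genes of each list, 117 with at least 30 UMIs, 394 with equal weights and 288 with free RNA subtracted. Genes higher than macrophage-only numbered 1689 with at least 3 UMIs, 553 with at least 30, 588 under the 0.1% rule and 1523 without endothelial-set barcodes. Genes above both classes numbered 16 with at least 3 UMIs, 2 with at least 30, 2 with 4 genes of each list, 13 with equal weights, 0 under the 0.1% rule, 2 after thinning and 9 without endothelial-set barcodes. Genes below both numbered 5 with TMM, 14 with 2 and 7 with 4 genes of each list, 16 with at least 3 and 1 with at least 30 UMIs, 49 with equal weights, 19 with free RNA subtracted, 7 with none of the other list in single-set barcodes, 8 under the 0.1% rule, 21 after thinning and 19 without endothelial-set barcodes. Genes higher and lower in HKO numbered 3826 and 1773 with 2 genes of each list, 736 and 632 with at least 30 UMIs, 832 and 589 after thinning, and 463 and 456 without endothelial-set barcodes.

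The quiescence median over stellate-only was -0.76 (WT) and -0.31 (HKO) with 2 genes of each list, -1.61 (WT) with 4 genes, -1.62 (WT) with none of the other list, and in HKO -0.89 with free RNA subtracted, -0.79 under the 0.1% rule, -0.99 after thinning and -0.35 without endothelial-set barcodes. The Kupffer median over macrophage-only in WT was 0.53 with TMM, -0.89 with free RNA subtracted, -0.46 under the 0.1% rule and -0.81 after thinning. In HKO it was -0.082 with 2 genes of each list, -0.25 with equal weights and -0.24 under the 0.1% rule.

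Further WT medians over macrophage-only that were at least 2-fold in size under the plain rule changed sign. With free RNA subtracted they were -0.043 (monocyte), -1.05 (MHC class II), -0.95 (inflammatory), -0.40 (non-inflammatory), -0.57 (macrophage receptors), and 0.92 for both hepatocyte and erythroid genes (0.98 for erythroid genes in HKO). Under the 0.1% rule they were -0.18 (monocyte), -0.40 (MHC class II), -0.57 (inflammatory), -0.074 (non-inflammatory), -0.18 (macrophage receptors) and -0.15 (efferocytosis and lysosome). After thinning they were -0.039 (monocyte), -0.55 (inflammatory), -0.42 (non-inflammatory), -0.38 (efferocytosis and lysosome) and -0.16 (endothelial), and cell cycle genes in HKO were at 0.33. Without endothelial-set barcodes erythroid genes were at 1.83 (WT) and 0.76 (HKO). The WT neutrophil median over stellate-only was -3.61 with 4 genes of each list, -3.51 under the 0.1% rule and -1.23 after thinning.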

Other observations

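Immediate early genes, which rise when tissue is dissociated, had median log2 ratios of 0.18 in WT and 0.75 in HKO members over stellate-only barcodes, and of 0.95 and -0.05 over macrophage-only barcodes, or 0.12 and 0.02 under the 0.1% rule. Nuclear-retained transcripts were at 5096 CPM in WT members and 9996 CPM in HKO members, against 10845 and 15012 CPM in stellate-only and 3192 and 9690 CPM in macrophage-only barcodes. The plain ratios over macrophage-only barcodes were 1.60 (1.53 to 1.67) in WT and 1.03 (1.01 to 1.06) in HKO. Under the 0.1% rule both directions turned, with 5072 against 7504 CPM (ratio 0.676, 0.640 to 0.714) in WT and 9170 against 9843 CPM (0.932, 0.905 to 0.959) in HKO. Genes of the portal side of the stellate population (Igfbp3, Il34, Itgb3 and Tgfbi) had medians of -0.65 in WT and -0.37 in HKO over stellate-only barcodes, and 3 genes of the central side had 1.47 and -0.40. Tgfbi was at 261 CPM in WT members and 495 CPM in HKO members, and Adamtsl2, of the central side, 36.4 and 35.4 CPM. The 6 contractile and smooth muscle genes tested over stellate-only barcodes had medians of -0.12 in WT and -0.47 in HKO, and 5 of them under the 0.1% rule -0.65 and -1.01. The members' median depth was 14353 UMIs in WT and 13992 in HKO, where the medians of the stellate-only and macrophage-only classes added to 18073 and 11708.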
